A study of Mus musculus with 6 samples.

Results

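The apolipoprotein L genes of the mouse were examined in bone marrow-derived macrophages (BMDM), macrophages grown in culture from bone marrow cells. Of the 55453 genes in the count table, 8 were selected by symbol: Apol6, Apol7a, Apol7b, Apol7c, Apol8, Apol9a, Apol9b and Apol10b. The family was selected because Apol7c was already known to be much higher in PP2Ac KO, so the differences between genotypes of these 8 genes are given as a description and are not tested. The study compared 3 PP2Ac KO libraries, from LysMcre PP2Ac fl/fl mice, with 3 PP2Ac WT libraries, all on the C57BL/6 strain. PP2Ac is the catalytic subunit of protein phosphatase 2A and is encoded by Ppp2ca. In the KO mice cre is driven by the promoter of lysozyme 2 (LysM), which is active in myeloid cells, and it removes a floxed exon of Ppp2ca. The WT mice were C57BL/6 mice obtained from a commercial supplier, whereas the KO mice came from another laboratory, so genotype and colony cannot be told apart. The sample labels give no treatment. The study describes cGAMP, the natural ligand of the innate immune sensor STING, for its RNA-Seq of BMDM, and both genotypes were taken as treated with it. No untreated libraries were analysed here, so a level before treatment is not known. The study describes its cell experiments as biological triplicates, but the sources used here do not say whether the 3 libraries of a genotype came from separate mice, so p-values measure the spread between these libraries.

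Library totals ran from 35257156 to 47390899 counts. Reads on Ppp2ca numbered 33 to 47 in PP2Ac KO and 8279 to 10654 in PP2Ac WT, as their labels have it. The summed level of 8 macrophage markers was 9091.7 to 9166.3 CPM (counts per 1e6 of the scaled library) in the PP2Ac KO libraries, against 7546.7 to 8145.3 CPM in those of PP2Ac WT. Of the 8, Fcgr1, C1qa and Mertk rose at a false discovery rate under 0.05 (edgeR) and none fell. Lyz2, 1 of the 8 and the gene whose promoter drives cre, had only 260 to 421 counts in PP2Ac KO and 304 to 349 in PP2Ac WT. The reason for so low a count was not examined, and no level of its transcript is read from it. A count of 3 in a library was used as the floor of detection and corresponds to 0.0604 to 0.0909 CPM. This floor and the counting intervals given with it cover counting error only. They understate that error if PCR copies of one molecule were counted as separate reads. How such copies were treated is not known here.

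Apolipoproteins L are named after a component of human high-density lipoprotein, but most of the family act inside cells. They are membrane-associated proteins that can insert into lipid bilayers, and human APOL1 lyses trypanosomes. Several family members are induced by interferons (IFN) and by inflammatory signals in myeloid and endothelial cells. The mouse genes arose by duplication independently of the human ones, so that a mouse gene does not match a human gene of the same number one to one. Mouse Apol9a and Apol9b are known as IFN-induced genes with antiviral activity, and Apol7c is known from dendritic cells, where it is recruited to phagosomes and makes their membranes leaky.

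All 8 genes lie on chromosome 15 in the mouse genome build GRCm38 (mm10), within 712.3 kb from 77044729 to 77757003. Apol6 stands 331.1 kb apart from the next of them, and the other 7 lie within 368.8 kb. Apol7c runs from 77524852 to 77533316 on the reverse strand, Apol9a from 77403789 to 77411135 on the reverse strand and Apol9b from 77729039 to 77736382 on the forward strand. The coding sequences of Apol9a and Apol9b differ at 14 of 930 aligned bases, an identity of 98.5%. Apol7a, Apol7b and Apol7c form a further group of near relatives, with 88.8% to 90.8% identity. All other pairs of the 8 coding sequences were 64.2% to 72.5% identical.

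The promoters are shown because Apol7c, Apol9a and Apol9b, the members with the most reads, share a run of letters that the other 4 members with a promoter in the table lack. Promoter sequences of 300 bases, from 250 before to 50 after an annotated start, were taken from RefSeq (GRCm38.p6) and matched 7 of the 8 genes, with Apol6 the exception. They were searched on both strands for the core of the IFN-stimulated response element (ISRE), here GAAA and GAAA with any 2 bases between them, or TTTC and TTTC on the other strand, an element of many IFN-stimulated promoters. They were also searched for the GAS element TTCNNNGAA, and for a kappaB element, GGGA and TTTCC with any 1 base between them, bound by NF-kappaB. In the promoters below, which read 5′ to 3′ on the strand of the gene, capitals mark a TTTC repeat, in which TTTC occurs 3 times with any 2 bases between the copies, so that 2 ISRE cores overlap. The Apol7c promoter is chr15:77533266-77533565, reverse strand, and the Apol9b promoter is chr15:77728822-77729121, forward strand.
Apol7c: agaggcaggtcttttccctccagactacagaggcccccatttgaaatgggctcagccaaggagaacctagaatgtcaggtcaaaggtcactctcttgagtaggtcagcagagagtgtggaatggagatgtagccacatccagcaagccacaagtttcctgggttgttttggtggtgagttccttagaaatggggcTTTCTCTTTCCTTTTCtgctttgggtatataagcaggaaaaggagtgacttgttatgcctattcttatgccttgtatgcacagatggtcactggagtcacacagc
Apol9b: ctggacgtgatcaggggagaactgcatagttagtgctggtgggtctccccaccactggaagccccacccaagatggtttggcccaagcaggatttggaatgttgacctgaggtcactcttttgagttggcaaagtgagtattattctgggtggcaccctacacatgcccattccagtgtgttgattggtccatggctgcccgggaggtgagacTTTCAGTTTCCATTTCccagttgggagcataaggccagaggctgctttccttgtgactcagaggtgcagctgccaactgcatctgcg

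In Apol7c the repeat began at position -55 relative to the annotated start. In Apol9b it began at -37 or -86, depending on which of its annotated starts is used, and in Apol9a at -59 or -105. The first-listed promoters of Apol9a and Apol9b were identical over 278 aligned bases, so the 2 genes carry the same letters there. A single ISRE core was found in Apol10b, beginning at -4, and Apol7a, Apol7b and Apol8 had none. No GAS or kappaB letters were found in any of these 7 genes. Of 32851 RefSeq promoters of the same length, 3.44% held an ISRE core, 8.3% a GAS element and 0.41% the kappaB letters. The TTTC repeat was found in 38 of them, 0.12%. The search for the repeat was chosen after these sequences had been seen. A match of letters is a description of the sequence and not evidence that a factor was bound.

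Reads on the family came almost wholly from Apol9b, Apol9a and Apol7c. Apol9b had 1066, 778 and 659 counts in the PP2Ac KO libraries numbered 1, 2 and 3, and 304, 162 and 128 in the PP2Ac WT libraries. Apol9a had 346, 263 and 194 counts in PP2Ac KO, and 156, 62 and 62 in PP2Ac WT. Apol7c had 78, 47 and 30 counts in PP2Ac KO, and 10, 6 and 4 in PP2Ac WT. For each of the 3 genes the lowest PP2Ac KO library stood above the highest PP2Ac WT library.

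**Figure D1:**
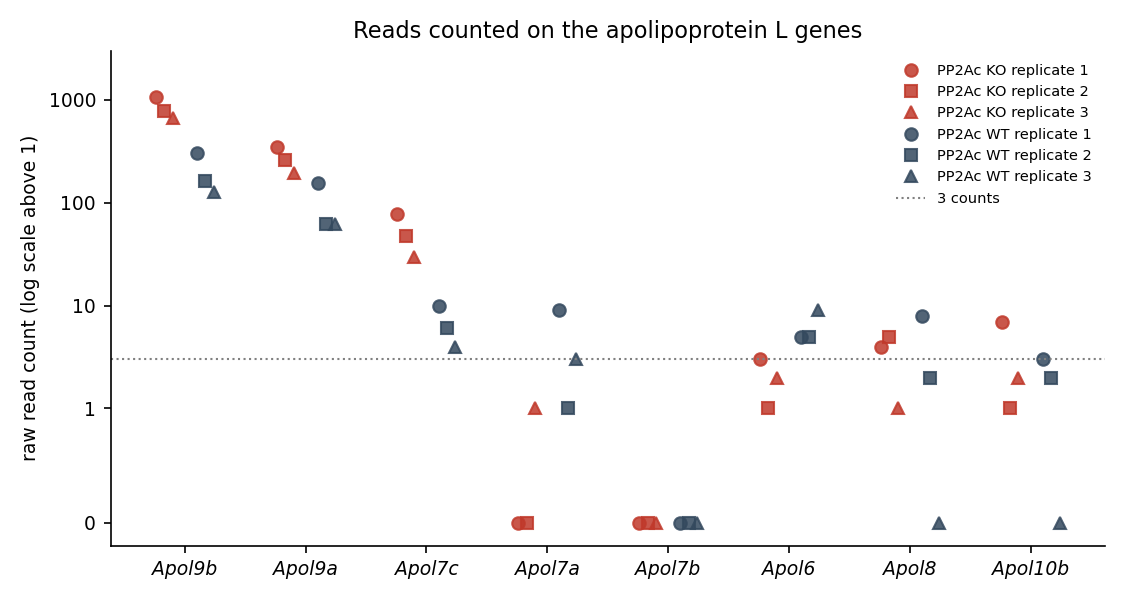
Raw read counts (log scale above 1) of the 8 apolipoprotein L genes in each library, with PP2Ac KO in red, PP2Ac WT in dark blue and a symbol per replicate number. The dotted line marks 3 counts. Apol9b, Apol9a and Apol7c had all PP2Ac KO libraries above all PP2Ac WT libraries, and Apol7b had no counted read.

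The other 5 genes were at or near the floor. Apol7b had no count in any library, and 3 counts would equal at most 0.0909 CPM in a library. Of the windows of 150 bases in its transcripts, 43.8% also occur in Apol7e. How such shared reads were counted is not known, so the absence of counts need not mean that no transcript was present. Apol6 had 3, 1 and 2 counts in PP2Ac KO and 5, 5 and 9 in PP2Ac WT, so its libraries did not overlap and it stood lower in PP2Ac KO, opposite to the abundant members. The ratio of its summed rates, KO over WT, was 0.364 with an exact 95% counting interval of 0.119 to 0.948. This interval leaves out the spread between libraries. Fitted without a filter on low counts, Apol6 had a log2 fold change of -1.43 (SE 0.78). Of its exonic bases 64 overlap Mb, the myoglobin gene on the opposite strand, which had no count.

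Apol7a had 0, 0 and 1 counts in PP2Ac KO and 9, 1 and 3 in PP2Ac WT, and its libraries overlapped between genotypes. The ratio of its summed rates was 0.0887 with a counting interval of 0.00209 to 0.59, and 9 of the 13 PP2Ac WT reads came from 1 library. Apol8 had 4, 5 and 1 counts in PP2Ac KO and 8, 2 and 0 in PP2Ac WT, a ratio of 1.15 with an interval of 0.431 to 3.09. Apol10b, whose promoter held a single ISRE core, had 7, 1 and 2 counts against 3, 2 and 0, a ratio of 2.31 with an interval of 0.718 to 8.6. In the fit without a filter, Apol7a had a log2 fold change of -3.09 (SE 1.27). A difference in Apol8 or Apol10b was not detectable at this depth, and none is called for Apol6 or Apol7a.

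The filter on low counts kept 3 of the 8 genes, Apol7c, Apol9a and Apol9b. Apol7c passed only through its counts in PP2Ac KO, so that it had to differ between genotypes to be fitted. Apol7c averaged 1.33 ± 0.566 CPM in PP2Ac KO against 0.145 ± 0.0533 CPM in PP2Ac WT (SD, n = 3), a fitted log2 fold change of 3.14 (SE 0.44). Apol9b averaged 21.5 ± 5.00 CPM against 4.30 ± 1.61 CPM (SD, n = 3), and its fitted log2 fold change was 2.31 (SE 0.25). Apol9a averaged 6.92 ± 1.97 CPM against 2.01 ± 0.975 CPM (SD, n = 3), and its fitted log2 fold change was 1.76 (SE 0.31). All 3 had higher means in PP2Ac KO, by 9.16-fold, 5.00-fold and 3.44-fold for Apol7c, Apol9b and Apol9a.

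**Figure D2:**
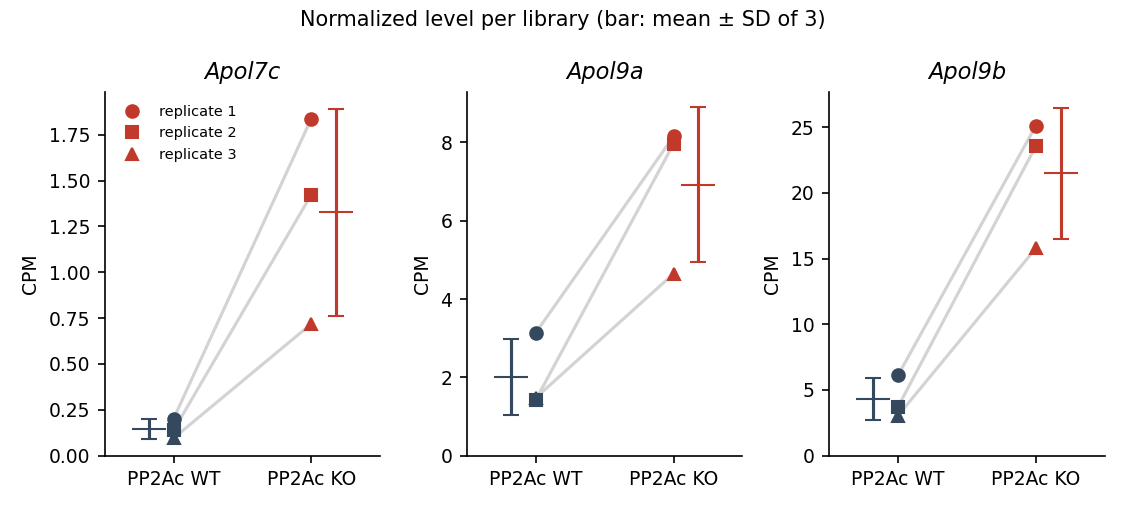
CPM of Apol7c, Apol9a and Apol9b in each library, with PP2Ac WT in dark blue, PP2Ac KO in red, grey lines between libraries of the same replicate number, and bars at the mean ± SD of 3 libraries. The PP2Ac KO means are 1.33, 6.92 and 21.5 CPM, against 0.145, 2.01 and 4.30 CPM in PP2Ac WT, and every grey line goes up.

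Because the family was chosen on this contrast, and Apol7c entered the fit only through its counts in PP2Ac KO, no significance call is given for its members. For scale, over all 13680 genes tested with edgeR's quasi-likelihood test, 18.1% were higher in PP2Ac KO at a false discovery rate (FDR) under 0.05 and 19.0% were lower. With a log2 fold change over 1 and an FDR under 0.01, called the fold limit here, the shares were 3.36% higher and 2.99% lower. The libraries of 24.0% of the genes tested did not overlap and stood higher in PP2Ac KO, and those of 26.8% did not overlap and stood lower. Nothing is read from these shares about the family. The fold between libraries of the same number was 9.13, 10.3 and 7.53 for Apol7c, 4.11, 6.33 and 5.17 for Apol9b, and 2.60, 5.59 and 3.14 for Apol9a.

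Libraries of 1 genotype also differed among themselves, and the 3 genes did so together. In PP2Ac WT the library numbered 1 was the highest for all of them, by 0.41 (Apol7c), 0.72 (Apol9a) and 0.57 (Apol9b) on the log2 scale above the genotype mean. In PP2Ac KO the library numbered 3 was the lowest for all of them, at -0.75 (Apol7c), -0.53 (Apol9a) and -0.41 (Apol9b). Across the 6 libraries, the Pearson correlation of log2 CPM was 0.991 between Apol7c and Apol9b and 0.969 between Apol7c and Apol9a. Between Apol9a and Apol9b it was 0.983. These points share the 2 genotypes and the library scaling, so the values describe likeness only.

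Levels were set side by side per kb of annotated exon. Apol9b stood at 11.8 CPM per kb in PP2Ac KO, which was percentile 74.6 of the genes tested, and at 2.36 CPM per kb in PP2Ac WT, percentile 40.7. Apol9a stood at 1.16 and 0.338 CPM per kb, percentiles 30.2 and 14.3. Apol7c stood at 0.644 and 0.0703 CPM per kb, percentiles 22.7 and 2.5, so the gene with the largest fold was still a low-abundance transcript in PP2Ac KO. The annotated exons of Apol9a total 5953 bases against 1821 in Apol9b, and so the per-kb level of Apol9a depends on annotated exons outside its coding sequence. The remaining 5 genes were at or under 0.035 CPM per kb in both genotypes.

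Because Apol9a and Apol9b are near copies, the division of reads between them is uncertain. Of the windows of 150 bases, the read length, in the transcripts of Apol9b, 22.5% also occur in another gene, against 7.1% for Apol9a and 0.3% for Apol7c. As counted, Apol9b took 75.5%, 74.7% and 77.3% of the reads on the pair in PP2Ac KO and 66.1%, 72.3% and 67.4% in PP2Ac WT. The shares did not overlap, with means of 75.8% ± 1.33 and 68.6% ± 3.27 (SD, n = 3). The 95% binomial intervals (Clopper-Pearson) of PP2Ac WT library 2, 66.0% to 78.1%, and of PP2Ac KO library 2, 72.0% to 77.4%, overlapped. Summed as a single feature, the pair had a log2 fold change of 2.16 (SE 0.26). The sum of Apol7a, Apol7b and Apol7c had a log2 fold change of 2.44 (SE 0.43), below that of Apol7c alone, since Apol7a had most of its reads in PP2Ac WT.

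The remaining apolipoprotein L genes contributed almost nothing. Of 7 further family genes in the table, Apol10a, Apol10c-ps, Apol11a and Apol11b had no count. Apol7e, which has the repeat in its promoter, had 0, 0 and 4 counts in PP2Ac KO and 1, 0 and 0 in PP2Ac WT. Apol7d, an antisense gene on chromosome 1, had 1, 2 and 0 counts against 0, 0 and 1. Apold1, a related gene of endothelial cells on chromosome 6, had 1, 0 and 1 counts in PP2Ac KO and 6, 3 and 5 in PP2Ac WT, so its libraries did not overlap. None of the 7 passed the filter.

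**Figure D3:**
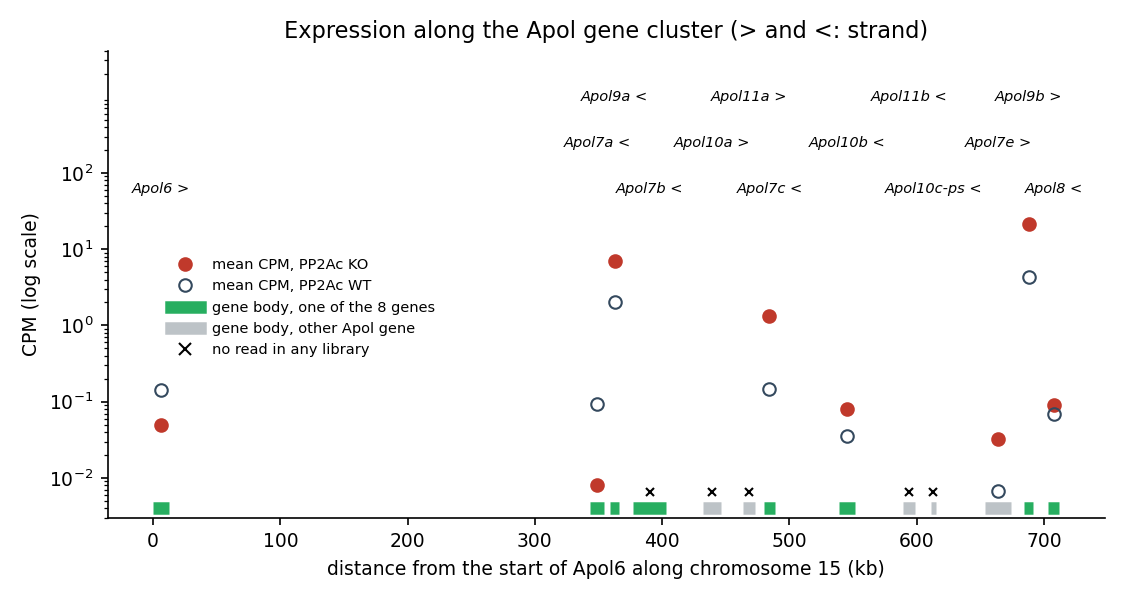
Mean CPM (log scale) of each Apol gene in PP2Ac KO (filled red) and PP2Ac WT (open dark blue), at its distance in kb from the start of Apol6, with gene bodies along the bottom and crosses for genes with no read. Apol9a, Apol7c and Apol9b, above 1 CPM in PP2Ac KO, are separated by Apol7b, Apol10a and Apol11a, which had no counted read, and by Apol10b and Apol7e, which were close to the floor.

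Of 40 chromosome 15 genes within the span or 250 kb of it, 20 had no count and 11 were tested, of which 2 rose in PP2Ac KO and 3 fell, and their median log2 fold change was -0.14. Among all genes tested, 18.1% rose, 19.0% fell and the middle log2 fold change was -0.02, so that the neighbours' counts were near the background. The nearest tested genes beyond Apol8 were Myh9, the heavy chain of non-muscle myosin IIA, at -0.14 (SE 0.11, FDR = 0.359, edgeR), and Txn2, mitochondrial thioredoxin, at 0.01 (SE 0.06, FDR = 0.921, edgeR). The nearest beyond Apol6 were 1110038F14Rik, which rose by 0.54 (SE 0.06, FDR = 2.74e-04, edgeR), and Zfp647, a zinc finger gene, which fell by 0.90 (SE 0.20, FDR = 0.00727, edgeR). Foxred2 (log2 fold change -0.91, FDR = 3.21e-04, edgeR) and Rbfox2 (-0.65, FDR = 0.00577, edgeR), a splicing regulator that lies between Apol6 and Apol7a, were the other genes that fell. Rpl8, a ribosomal protein gene, had a log2 fold change of 0.24 (FDR = 0.0261, edgeR). No neighbour was past the fold limit. With the replicate number as a block 5 neighbours fell, and without PP2Ac KO library 2 or PP2Ac WT library 2 only 1 rose, as with upper-quartile scaling.

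Among IFN-stimulated effector genes, all 28 listed were tested and all 28 rose in PP2Ac KO, 17 of them past the fold limit. Their median log2 fold change was 1.07, beside -0.02 over all genes tested. The largest changes were those of Ifi44 (2.55, SE 0.35, FDR = 5.81e-04, edgeR), Isg20, an exonuclease (1.65), and Oasl1, of the oligoadenylate synthetase family (1.63). The IFN response was known from these libraries when the list was set, so the count is not independent evidence of its direction. Within a genotype, the median of the 28 genes was highest in PP2Ac WT library 1 (0.33 above the genotype mean) and lowest among PP2Ac KO libraries in number 3 (-0.08), the libraries in which Apol7c, Apol9a and Apol9b were also highest and lowest. Their summed level was 47834 to 53318 CPM in PP2Ac KO against 20092 to 29722 CPM in PP2Ac WT.

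Genes with the same letters in their promoter as Apol7c, Apol9a and Apol9b were then examined. Outside the 8 genes, 33 held the TTTC repeat, 27 were in the count table and 19 were tested. Of these 19, 17 rose in PP2Ac KO and none fell, 89.5%, beside 18.4% of the 10063 tested genes with a promoter in the RefSeq table. The median log2 fold change of the 19 was 0.70, and 5 were past the fold limit, 26.3%, beside 3.31%. The 17 included Bst2 (tetherin, which holds virions at the cell surface), Isg15 (a ubiquitin-like modifier), Oas1a and Oas1g (oligoadenylate synthetases), Irgm1 and Gbp3 (IFN-induced GTPases), Socs1 (an inhibitor of cytokine signaling) and Trim21. Among the 17 were also Kcnab1, with the largest log2 fold change (1.68), and small rises such as Washc3 (0.21) and Vhl (0.16, FDR = 0.0412, edgeR). The other 2 of the 19 were Ctso (log2 fold change 0.16, FDR = 0.108, edgeR) and Rpp14 (-0.14, FDR = 0.322, edgeR). Without the 3 genes that also stand on the IFN list, 14 of 16 rose. These still included IFN-induced genes such as Oas1g, Irgm1 and Gbp3. The letters and the IFN response therefore cannot be told apart in this count, and neither was tested as a cause.

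The shares were also counted for single elements. With at least 1 ISRE core but no TTTC repeat, 161 of 393 tested genes rose, 41%, and 52 fell. With kappaB letters, 18 of 52 rose, 34.6%, and 7 fell, and with GAS letters 172 of 813 rose, 21.2%, and 155 fell. Neither the differences between these shares nor the part of any factor was tested, and some genes hold letters of more than 1 kind.

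**Figure D4:**
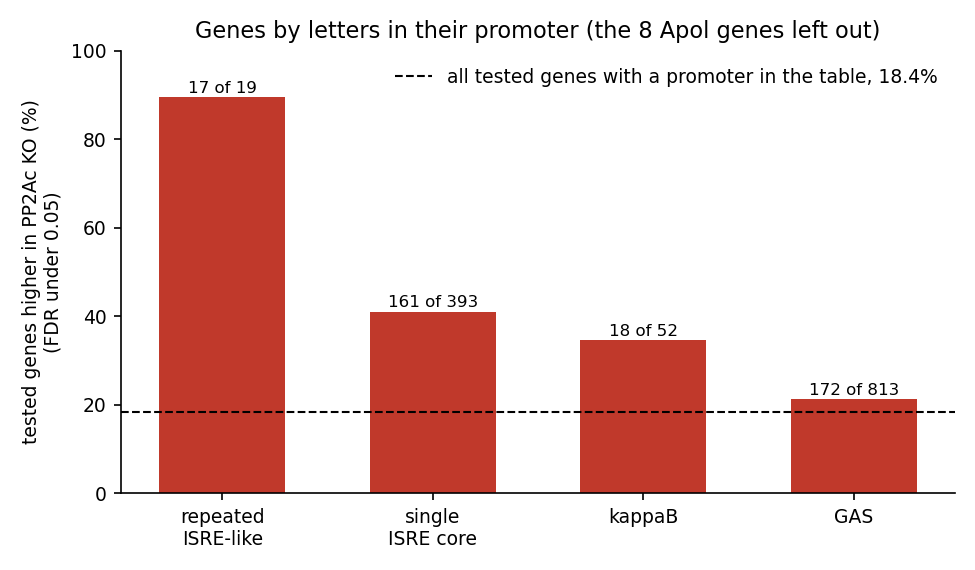
Share of tested genes (%) that were higher in PP2Ac KO at an FDR under 0.05, by the letters found in their 300-base promoter, with the 8 Apol genes left out and the number of genes above each bar. The dashed line is the share of all tested genes with a promoter in the RefSeq table, 18.4%. The bar for the TTTC repeat found in Apol7c, Apol9a and Apol9b stands at 89.5%.

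**Figure D5:**
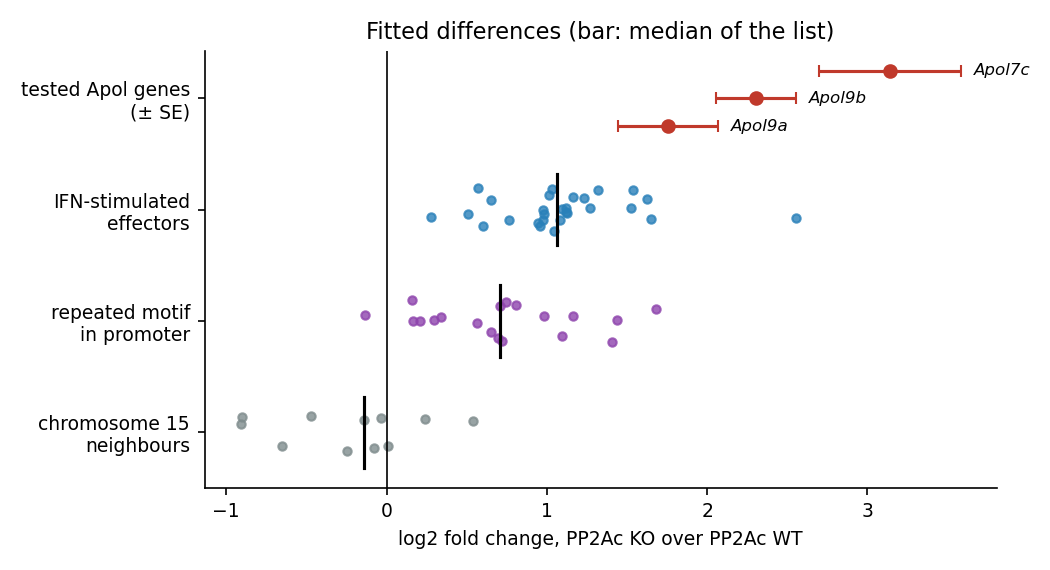
Fitted log2 fold change (PP2Ac KO over PP2Ac WT) of Apol7c, Apol9b and Apol9a (± SE), and of the tested genes of the IFN-stimulated list, of the genes with the TTTC repeat and of the chromosome 15 neighbours, with a bar at each median. Points are spread vertically only for legibility. The medians stand at 1.07, 0.70 and -0.14. The family was chosen on this contrast, so its place relative to the lists is not a result.

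Apolipoproteins of circulating lipoprotein particles, which are not related in sequence to the apolipoprotein L family, were also examined. Of 14 listed genes 6 had no count and 4 were tested. Of these 4, 1 rose and 1 fell, beside 18.1% and 19.0% of all genes tested, too few to read a pattern from. Apod, a lipocalin, rose by 1.41 (SE 0.37, FDR = 0.0142, edgeR), and Clu, clusterin, fell by 1.35 on the log2 scale (SE 0.35, FDR = 0.0152, edgeR). Both had few reads, 17 to 33 counts in PP2Ac KO and 6 to 13 in PP2Ac WT for Apod. Clu had 7 to 8 and 17 to 28. Apoe, the main apolipoprotein made by macrophages, had a log2 fold change of 0.19 (FDR = 0.103, edgeR), and Apoc1 one of 0.36 (FDR = 0.539, edgeR). These calls moved between fits. When replicate numbers were blocked, 2 genes rose, without PP2Ac KO library 1 no gene rose or fell, without PP2Ac KO library 3 2 rose and none fell, and without PP2Ac WT library 2 none fell.

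The genes whose log2 CPM followed Apol7c most closely over the 6 libraries were 1810022K09Rik (Pearson r = 0.9989), Traf2 (0.9976), Traf1 (0.9975), Galnt3 (0.9973) and Psd4 (0.997). Traf1 and Traf2 are adaptors of TNF receptor signaling. The closest to Apol9b were Cycs (0.9987), Hs6st1 (0.9987), Arl4a (0.9986), Birc2 (0.9986) and Ptpro (0.9984). Birc2 is an inhibitor of apoptosis that acts in the same receptor complexes as Traf2. All 10 had higher mean CPM in PP2Ac KO, and the libraries share genotype and scaling, so that high values arise readily over 6 points.

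Apol7c is known from dendritic cells and other family members from endothelial cells, and so markers of other cells were measured. The summed level of 8 dendritic cell markers was 2.92 to 4.41 CPM in PP2Ac KO against 2.35 to 2.86 CPM in PP2Ac WT. Of the 5 tested, 2 rose, Clec9a (1.25, FDR = 0.0284, edgeR) and Siglech (0.97, FDR = 0.0194, edgeR), beside 18.1% of all genes tested. Flt3, Batf3 and Ccr7 overlapped between genotypes and were not called (FDR = 0.791, 0.502 and 0.596, edgeR). Among those not tested, Cd209a had 7, 0 and 5 counts in PP2Ac KO and 18, 7 and 15 in PP2Ac WT. Xcr1 had 2, 1 and 3 against 0, 0 and 0, and Zbtb46 had 9, 21 and 3 against 10, 8 and 9. The 4 endothelial markers summed to 200.8 to 249.6 CPM in PP2Ac KO against 86.8 to 137.6 CPM in PP2Ac WT. Most of this was Kdr, with means of 198.8 and 93.2 CPM. Of the 3 tested, Kdr (1.09) and Cdh5 (1.40) rose. Pecam1 overlapped between genotypes and was not called (0.34, FDR = 0.0643, edgeR), and Cldn5 was at 0 in all libraries. The 4 fibroblast markers all fell, from 74.9 to 117.7 CPM in PP2Ac WT to 22.7 to 33.4 CPM in PP2Ac KO. Markers of T and NK cells summed to at most 0.212 CPM, those of B cells to at most 1.34 CPM and those of neutrophils to at most 1.07 CPM, and the defining genes Cd8a and Ly6g were at 0. The part of other cell types in the levels of Apol7c, Apol9a and Apol9b was not tested. In bulk RNA, more cells of a type and more RNA per cell cannot be told apart.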

How the data were processed

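RNA was measured in 6 BMDM libraries, 3 per genotype, grouped by the genotype in their labels. Per the labels, poly(A) RNA was made into directional libraries and sequenced from both ends. The authors deposited a table of raw read counts per gene on mm10, without normalization. The submitters' processing notes name fastp 0.20.0, kallisto 0.46.1, STAR 2.7.1a, HTSeq 0.11.2, edgeR 3.34.0 and limma 3.48.3 without their roles, and how reads shared by near-identical genes were counted is not given in the sources used here.

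Counts were fitted in R 4.3.3 with edgeR 4.0.16: filterByExpr (minimum count 10, minimum total 15), TMM scaling, and glmQLFit and glmQLFTest for genotype, with Benjamini-Hochberg adjustment over all 13680 genes kept of 55453. Standard errors are the log2 fold change over the square root of F. CPM use the TMM factors. Correlations and deviations from genotype means used log2 CPM with a prior count of 2, a small count added before the logarithm. Ratios of summed counts have exact binomial intervals. The fit was tested on simulated data. An exact permutation test of 3 libraries against 3 cannot go below p = 0.1, so none was used. Positions and exons came from GENCODE M21 and promoters from RefSeq. Sequences were aligned with Biopython 1.88. Another comparison of promoter sequences is not reported here.

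Libraries of both genotypes carry replicate numbers 1 to 3 in their titles, and nothing says what the numbers share. Across genes, deviations of same-numbered libraries from their genotype means correlated at 0.289, 0.148 and 0.337, so the numbers were taken as pairs in an alternative fit with a block. The counts were also scaled by RLE and by the upper quartile, and fitted without a filter, with at least 10 counts in every library, without each library in turn, with DESeq2 1.42.0, with limma-voom (limma 3.58.1), and with near-copies summed.

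The family members and gene lists were chosen with earlier results of these data known. Named genes were the 8 members, other family genes with at least 10 counts, the 3 largest changes at FDR under 0.05 on each list, the nearest tested neighbours on each side, the 5 genes most correlated with Apol7c and with Apol9b, and Ppp2ca. Rpl8, Apoe, Apoc1, the cell markers, the other family genes and the genes with the TTTC repeat were named after their values were seen.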

Additional observations from a re-analysis of the deposited data

How the results depend on the processing

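The log2 fold changes of Apol7c, Apol9a and Apol9b kept their sign under every alternative that gave a value. With no overlap between the libraries of the genotypes, they could hardly have changed sign. Apart from the sums of near-copies, they ran from 2.81 to 3.47 for Apol7c, from 1.56 to 2.25 for Apol9a and from 2.12 to 2.66 for Apol9b, with these ends reached by leaving out 1 library. Apol7c has no value when at least 10 counts are required in every library, since its PP2Ac WT libraries are too low, and 2 members are then tested. In the fit with the replicate block, the log2 fold changes were 3.17, 1.78 and 2.32 (Apol7c, Apol9a and Apol9b). Apart from the small lists given next, the pairing moved no count by more than 1.5 times. Over all genes tested it gave 3343 higher and 3615 lower, beside 2470 and 2604 in the main fit. These counts ran from 1974 to 2721 and from 1873 to 2720 when a library was left out. Leaving out a library gave 28 of the 28 IFN-stimulated genes higher each time. It gave 14 to 16 genes with the TTTC repeat higher, a count added after seeing the data.

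Small lists moved more. Of the lipoprotein-particle genes, 2 were higher with the replicate block and 2 with DESeq2, and 0 were higher and 0 lower when at least 10 counts were required in every library. Apod, with 6 counts in PP2Ac WT library 3, and Clu, with 7 to 8 in PP2Ac KO, are not tested under that requirement. Leaving out a library gave 0 to 2 higher and 0 to 1 lower. Of the chromosome 15 neighbours, 1 was higher with upper-quartile scaling, 5 were lower with the replicate block, and leaving out a library gave 1 to 2 higher and 3 to 4 lower. The cause of the other moves was not tested. Depth limits Apol6, Apol7a, Apol8 and Apol10b, with 25, 14, 20 and 15 counts in all.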
